A study of Homo sapiens with 22 samples.

Results

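HOX genes encode homeodomain transcription factors that give cells their position along the body axis. In humans they lie in the clusters HOXA, HOXB, HOXC and HOXD, and genes at the same relative place in different clusters are paralogues that share a number, with low numbers acting toward the head and high numbers toward the trunk, tail and limb tips. Their dose matters, and in adult cells the clusters keep much of their embryonic pattern through Polycomb and trithorax group chromatin proteins. All protein-coding genes whose symbol is HOX, a cluster letter and a number were taken, each by the protein-coding transcript with the highest mean count over the 0 to 10 h libraries, with at least 100 counts in all libraries together. That gave 36 of 39 HOX genes in the files (11 HOXA, 9 HOXB, 9 HOXC and 7 HOXD), among 227264 transcripts in all. HOXB1 had 0 counts in the 22 libraries, HOXD1 33 and HOXD12 44, and these were left out.

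The samples came from HEK293T, a human embryonic kidney cell line, that expressed a control hairpin (shControl) or one directed at ZNF598 (shZNF598), whose product ubiquitinates ribosomal proteins when ribosomes collide. Both kinds of cells were fed 150 µM bromouridine (BrU) for 24 h, so that new RNA carried the label, and were then chased without it, after which labelled RNA was captured and sequenced (BRIC-Seq). Each shRNA had 2 libraries at 0, 2, 4, 6 and 10 h of chase and 1 library at 24 h. The labels give 1 hairpin name per arm. They do not say whether lines were clones or that replicates were separate cultures, so p-values measure the spread between these libraries, which may be technical. For slopes over the chase, that spread also takes in how far levels depart from a straight line.

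Libraries held 52352359 to 96963584 counts at 0 to 10 h, and 21220829 (shControl) and 40157613 (shZNF598) at 24 h. The shControl 0 h replicates stood apart from each other, with a chi-square per degree of freedom of 18.8 and a correlation of 0.9769, against 2.31 to 12.6 and 0.9891 to 0.9957 for the other pairs. Without either of these 2 libraries, 19 of the 20 HOX transcripts tested below still fell from 0 to 6 h, and 7 or 8 were lower in shZNF598 over 0 to 10 h. Values below are CPM, counts relative to the size of the library, after TMM scaling, which sets the bulk of each library level, so a transcript that decays like the bulk stays flat. The knocked-down gene was at 6.73 and 8.26 CPM in shControl and 0.742 and 1.03 CPM in shZNF598 at 0 h, and its log2 difference over 0 to 10 h was -3.05 ± 0.09 (standard error, edgeR adjusted p = 1.17e-18). At 0 h the epithelial and mesenchymal genes expected of HEK293T were present, with VIM at 94.5 to 108 CPM and KRT18 at 10.1 to 13.1 CPM, while PAX2 did not exceed 0.068 CPM. Of markers of other cell types, PTPRC, ALB, PECAM1 and MYH7 did not exceed 0.0317 CPM and COL1A1 lay at 0.552 to 1.03 CPM. In bulk libraries, fewer cells with a transcript and less of it per cell cannot be told apart.

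Several microRNA genes lie inside the HOX clusters, and their seed matches in HOX transcripts are a sequence feature that the choice of genes did not use. Their mature sequences from RefSeq (GRCh38.p14) follow, because their seeds, bases 2 to 8 in capitals, define the matches counted below. The miR-196a and miR-196b sequences share 1 seed. The microRNAs themselves were not measured.
hsa-miR-10a-5p: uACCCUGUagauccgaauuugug
hsa-miR-196a-5p: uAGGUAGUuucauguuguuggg
hsa-miR-196b-5p: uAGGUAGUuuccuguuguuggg
hsa-miR-615-3p: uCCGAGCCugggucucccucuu

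The match to the miR-196 seed, ACTACCT on the transcript strand, was found in 9 of 36 HOX transcripts, against 19.4% of 10725 protein-coding genes at or above 1 CPM. The 36 include HOX transcripts under 1 CPM, and the 10725 genes do not. Counted by length the 20 HOX transcripts at or above that level held 14.81 matches per 100 kb, against 5.47 per 100 kb in those genes. These matches lay in only 6 of the 20, whose median length was 2020 nt, against 3575 nt. The miR-615-3p match was at 14.81 per 100 kb in the 20, against 5.19, and also lay in 6. The miR-10a-5p match was at 4.23, against 6.55, and lay in 2. All these matches were counted over whole transcripts, and of the 20 only HOXC6 held a miR-615-3p match in its 3′ UTR. The miR-615-3p match, GGCTCGG, was in 11 of 36 (18.1% of those genes) and the miR-10a-5p match, ACAGGGT, in 6 of 36 (22%). The following 3′ UTR sites (GRCh38, minus strand) are examples. The HOXA7 site had the most bases facing a partner in miR-196a, and HOXA9, HOXB7 and HOXA5 are followed over the chase below. HOXB6 and HOXB13 are followed too and hold 3′ UTR sites, with 12 and 8 paired bases, that are not shown. Capitals mark bases that pair with the facing base of miR-196a-5p. The HOXA7 site lies at chr7:27154430-27154451, those of HOXA9 at chr7:27163254-27163275 and chr7:27162692-27162713, that of HOXB7 at chr17:48607614-48607635 and that of HOXA5 at chr7:27141387-27141408.
HOXA7: CCtActccCcTaAAACTACCTA
HOXA9, upstream site: aCaAAaggaAaGAAACTACCTt
HOXA9, downstream site: atgtgCAgaAgGttACTACCTA
HOXB7: aaCActgAaAaaAtACTACCTA
HOXA5: atatttttatTcAAACTACCTA

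At the end of labelling, HEK293T cells carried transcripts of all clusters, with the highest levels in paralogue groups 9 to 13. Per kilobase of transcript in the shControl 0 h libraries, HOXD13, which patterns the digits, was highest at 11.4 ± 1.2 CPM per kb (SD, n = 2). HOXA9, a gene of blood progenitors and leukaemia, was at 8.41 ± 0.11, HOXB9 at 7.70 ± 0.24 and HOXA10, a gene of uterine patterning, at 6.28 ± 0.64 CPM per kb. HOXA5 (3.90 ± 0.37) and HOXD10 (3.84 ± 1.3) did not differ beyond their spread, and the HOXD10 libraries lay apart at 4.75 and 2.94 CPM per kb.

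The middle of the order held HOXD11 at 2.99, HOXB7 at 2.81, HOXC4 and HOXA6 both at 2.18, HOXA11 at 1.62, HOXC9 at 1.39, HOXB3 at 1.13, HOXD9 at 1.10, HOXB6 at 1.08 and HOXB2 at 1.02 CPM per kb. Below 1 CPM per kb came HOXA13 (0.949), HOXC10 (0.914), HOXB13 (0.816), HOXB8 (0.717), HOXC11 (0.662), HOXC13 (0.619), HOXA3 (0.577), HOXD8 (0.555) and HOXC6 (0.525). The lowest were HOXD4 (0.405), HOXB4 (0.392), HOXA4 (0.319), HOXA2 (0.294), HOXA7 (0.268), HOXC8 (0.225), HOXD3 (0.182), HOXC5 (0.174), HOXB5 (0.118) and HOXC12 (0.0862 CPM per kb). Neighbouring paralogues in 1 cluster could differ widely, with HOXD13 at the top while HOXD12 did not reach 100 counts.

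**Figure D1:**
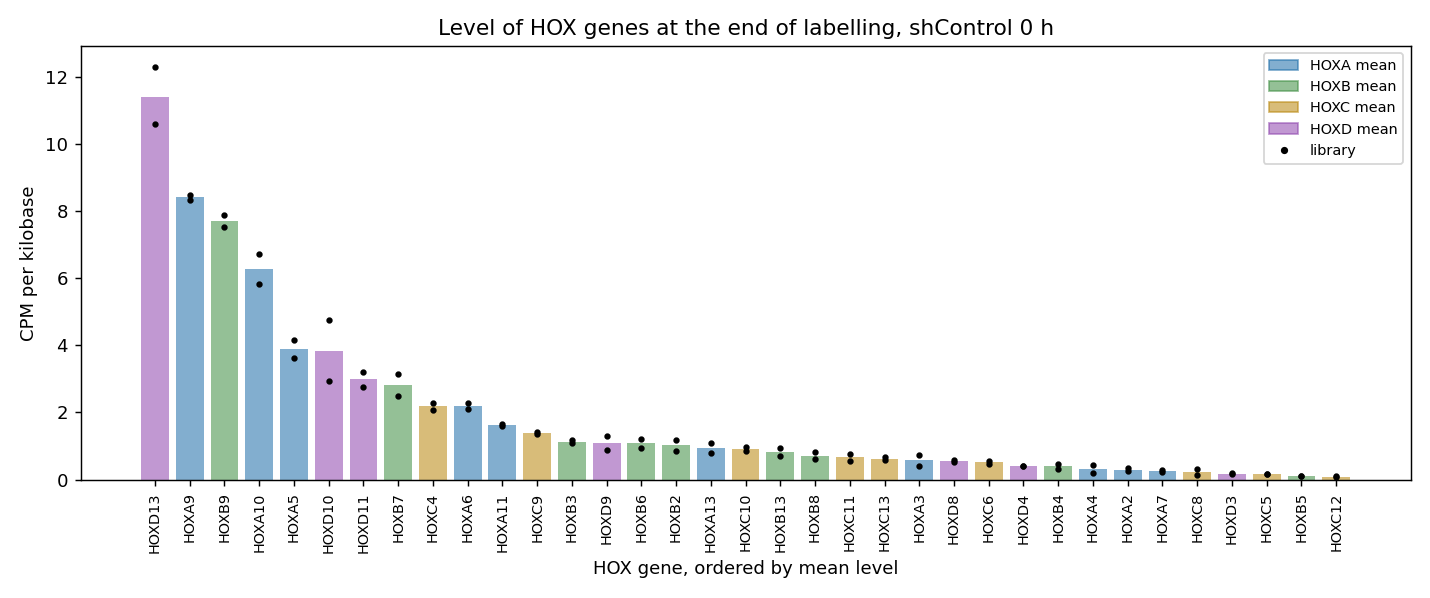
Mean level (bars) and both libraries (points) of HOX genes in shControl cells at 0 h, in CPM per kilobase, coloured by cluster. HOXD13 stands at 11.4 and HOXC12 at 0.0862 CPM per kb.

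Some exons are shared with other genes, and how the counting treated strand is not given in the sources used here. HOXA7 shared 74.8% of its exon bases with the antisense gene HOXA-AS3, HOXA11 27.2% with HOXA11-AS, HOXD8 24.5% with HOXD-AS2, HOXA10 23.9% with HOXA10-AS, HOXA6 21.1% with HOXA-AS3 and HOXA3 20.8% with HOXA-AS2 and HOXA-AS3. On the same strand, HOXC5 shared 67.3%, HOXA4 32.1%, HOXD11 26.5% (with HOXD10), HOXB6 22.1% (with HOXB3), HOXA9 19.2% and HOXC6 16.4%, so the values of these genes are less certain.

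Over the chase, labelled HOX transcripts fell much faster than the bulk for 6 h and then regained ground. Of 36 HOX transcripts, 20 averaged 1 CPM or more before TMM scaling in the libraries of 0 to 10 h and were tested among 79513 transcripts. From 0 to 6 h, 19 of these 20 fell in shControl and 19 in shZNF598, where 35.7% and 34.3% of all tested transcripts fell (edgeR quasi-likelihood test, adjusted p below 0.05). The median log2 change of the 20 was -1.47 in shControl and -1.32 in shZNF598, beside -0.01 and 0.00 over all tested transcripts. These contrasts between times were chosen after the time course had been seen.

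HOXD13 fell the most. In shControl it stood at 29.7 and 25.5 CPM at 0 h, 20.2 and 21.5 at 2 h, 7.32 and 6.97 at 4 h, 3.49 and 3.45 at 6 h, and 4.69 and 4.25 at 10 h. In shZNF598 it stood at 18.9 and 18.9 CPM at 0 h, 13.9 and 17.6 at 2 h, 4.09 and 4.23 at 4 h, 2.36 and 2.13 at 6 h, and 4.16 and 3.90 at 10 h. All 6 h libraries lay far below all 0 h libraries in both arms. The log2 change from 0 to 6 h was -3.01 ± 0.13 in shControl (SE, edgeR adjusted p = 4e-14) and -3.08 ± 0.13 in shZNF598 (adjusted p = 3.73e-14), leaving 12.6% and 11.9% of the 0 h level.

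HOXA9 and HOXA10, adjacent in the HOXA cluster, kept 22.3% and 23.2% of their 0 h level at 6 h in shControl. HOXA9 in shControl went from 17.5 and 17.2 CPM at 0 h to 5.29 and 5.36 at 4 h and 4.12 and 3.61 at 6 h, a log2 change of -2.18 ± 0.12 (edgeR adjusted p = 8.24e-13). HOXA10 in shControl went from 14.8 and 17.1 CPM to 4.86 and 5.86 at 4 h and 3.52 and 3.87 at 6 h, a log2 change of -2.14 ± 0.13 (adjusted p = 2.14e-12). For both, no later library up to 10 h overlapped the 0 h libraries. HOXB3, a hindbrain gene, fell by 2.13 on the log2 scale and HOXA13, the limb-tip paralogue of HOXD13, by 2.07 in shControl.

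HOXB7, at 3.39 and 4.28 CPM at 0 h and 0.987 and 0.952 at 6 h in shControl, fell by 2.00 on the log2 scale, and HOXA5, a gene of lung and thoracic patterning, by 1.92. HOXC11 fell by 1.83, HOXC6, which marks forelimb-level motor neurons, by 1.67, HOXA11 by 1.58, HOXC4 by 1.35, HOXB9 by 1.26, HOXC9 by 1.21 and HOXD9 by 1.04. The smallest falls that passed the test were those of HOXB13, a prostate gene (0.92), HOXA6 (0.90), HOXB6 (0.89), HOXC10 (0.87) and HOXD11 (0.62).

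HOXD10, next to HOXD11 in its cluster, was the exception. It stood in shControl at 9.44 and 5.85 CPM at 0 h, 8.08 and 6.79 at 2 h, 7.86 and 6.52 at 4 h, 8.55 and 7.04 at 6 h, and 8.75 and 7.42 at 10 h. The replicates of each time differed more from each other than any pair of group means did. The log2 change from 0 to 6 h was 0.01 ± 0.17 in shControl (edgeR adjusted p = 0.964) and 0.08 ± 0.17 in shZNF598 (adjusted p = 0.685), and in shControl it was 0.40, a rise that passed the test, without the higher 0 h library (replicate 1), -0.30 without the lower one (replicate 2) and -0.14 without 6 h replicate 1.

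Because both counts of a ratio come from 1 library, the ratio of HOXD13 to HOXD10 counts does not depend on scaling. In shControl the ratio was 3.14 and 4.36 at 0 h, 0.931 and 1.07 at 4 h, 0.409 and 0.490 at 6 h, and 0.536 and 0.572 at 10 h. In shZNF598 it was 2.47 and 2.41 at 0 h, 0.522 and 0.632 at 4 h, 0.272 and 0.273 at 6 h, and 0.464 and 0.422 at 10 h. Transcripts of these genes, from the same cluster, thus changed their order in counts within 6 h of chase in both arms.

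**Figure D2:**
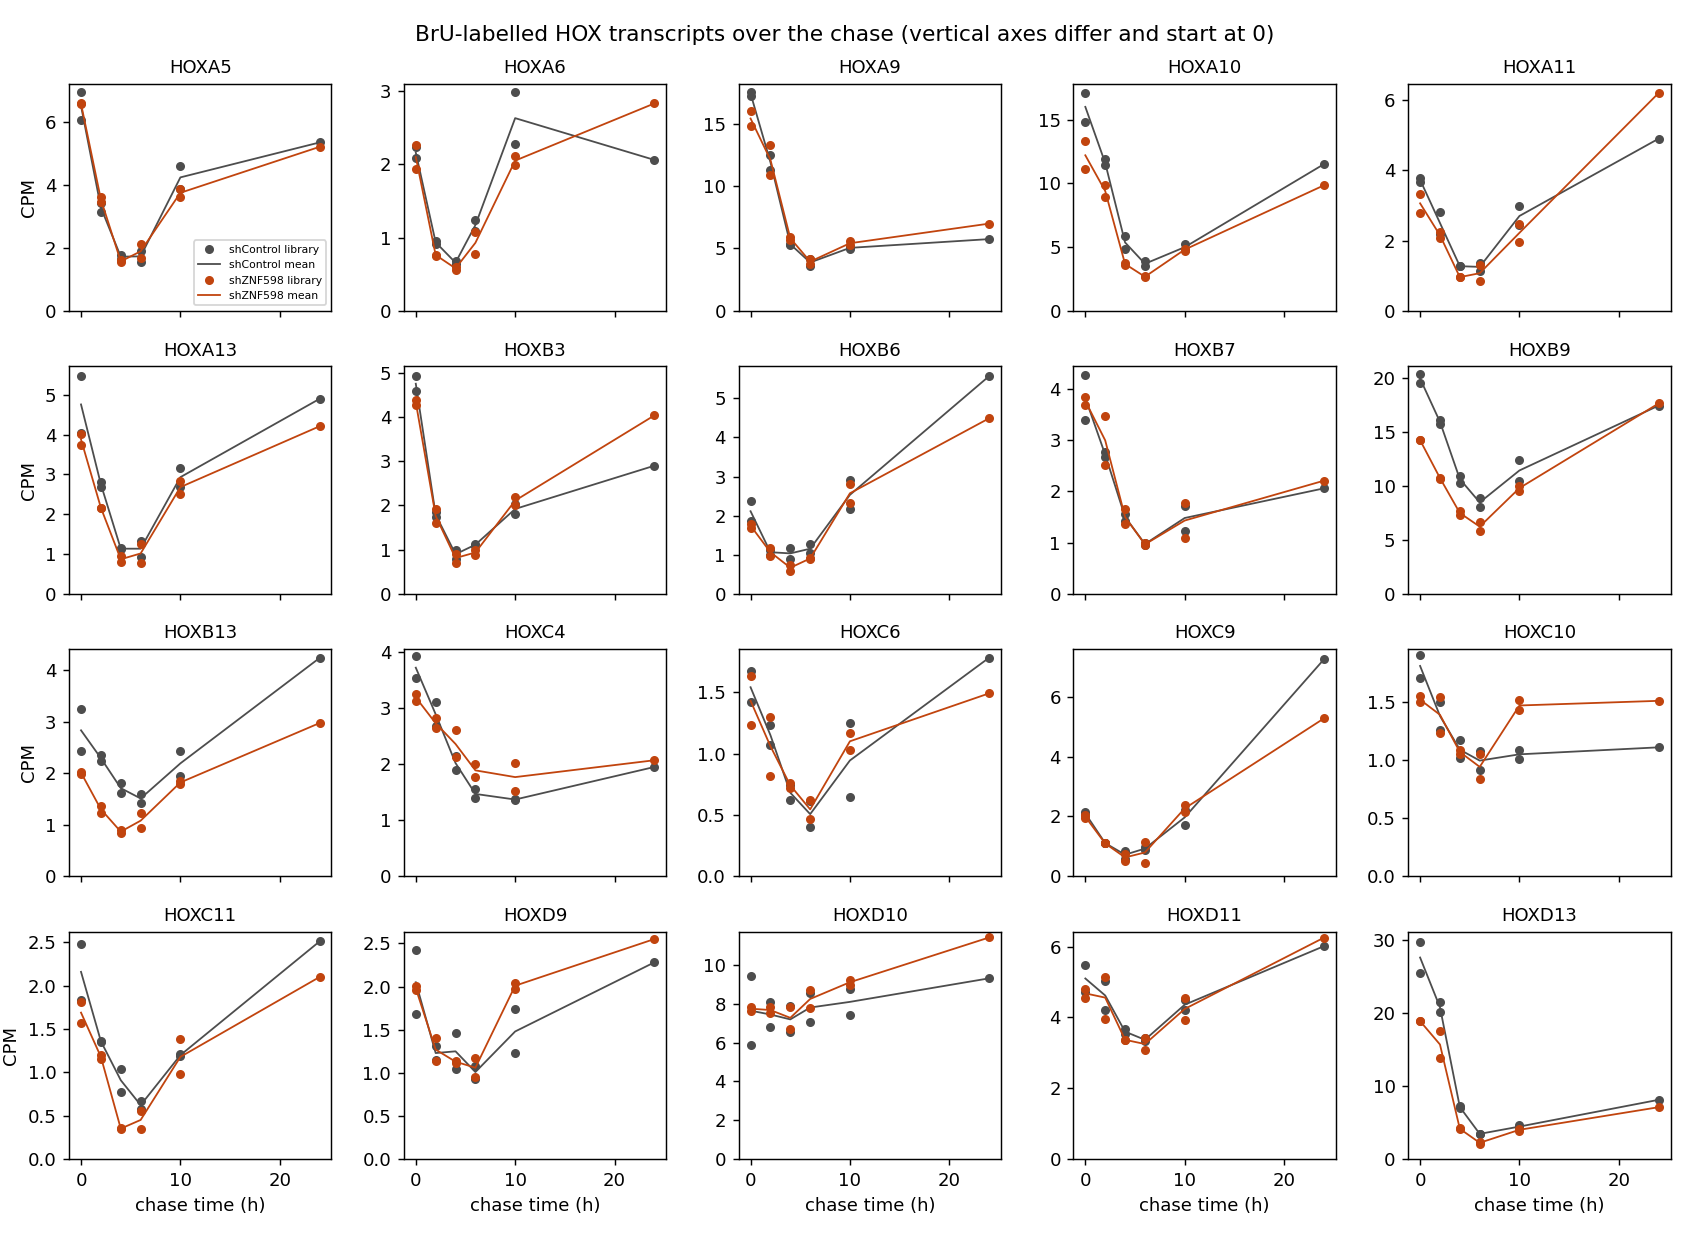
CPM of the 20 tested HOX transcripts against chase time in hours, 1 panel per gene, with points for libraries and lines for group means of shControl (grey) and shZNF598 (orange). Most profiles fall until 4 or 6 h and rise afterwards, HOXD10 stays level, and the 24 h points are single libraries.

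Between 6 and 10 h the direction turned. In shControl 17 of the 20 rose relative to the bulk and in shZNF598 17, where 26.2% and 23.3% of all tested transcripts rose. HOXA13 rose by 1.38 ± 0.21 on the log2 scale in shControl, from 1.32 and 0.932 CPM at 6 h to 3.17 and 2.69 at 10 h (edgeR adjusted p = 1.13e-05). HOXA5 rose by 1.31, HOXA6 by 1.20 and HOXB6 by 1.16, while HOXC4 (-0.08), HOXD10 (0.08) and HOXC10 (0.10) did not pass the test in shControl. In all, 17 of the 20 fell to 6 h and then rose in shControl, a pattern called for 5.72% of all tested transcripts.

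The later rise depended on how libraries were scaled and on single libraries. With libraries scaled to their total counts, where the median of all tested transcripts fell by 0.38 on the log2 scale from 6 to 10 h, 7 HOX transcripts rose and 1 fell in shControl. Without shControl 10 h replicate 1, 8 rose, and without either shControl 6 h library, 11 rose. Over all tested transcripts, 42527 had an unadjusted edgeR p under 0.05 in either direction with all libraries. That count was 35392 without shControl 10 h replicate 1, and 36644 and 36542 without 6 h replicates 1 and 2. Among the 20 HOX transcripts the same counts were 17, 11, 16 and 16. In shZNF598 12 rose under total-count scaling, 14 without shZNF598 6 h replicate 1 and 15 without shZNF598 10 h replicate 1. The shares of all tested transcripts that rose in these settings are not given. The fall to 6 h was called for 19 of 20 in both arms under total-count scaling too, where the median of all tested transcripts fell by 0.28 in shControl.

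**Figure D3:**
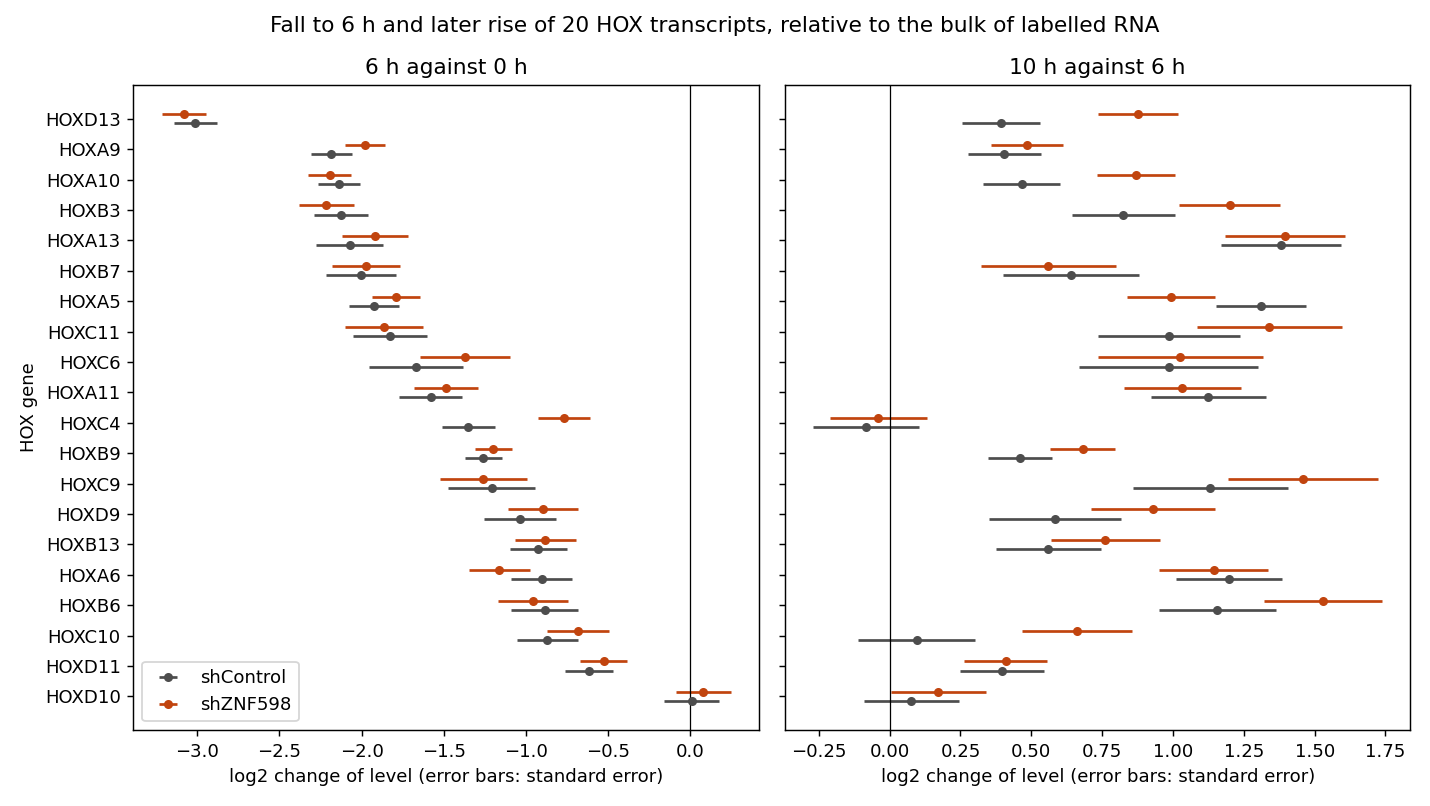
Log2 change with standard error from 0 to 6 h (left) and from 6 to 10 h (right) for the 20 tested HOX transcripts in shControl (grey) and shZNF598 (orange). HOXD13 is at -3.01 and HOXD10 at 0.01 in shControl on the left, and points of both arms lie close together for most genes.

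A straight line over 0 to 10 h, which averages fall and rise, was steeper than the bulk for 7 of 20 HOX transcripts in shControl and for 5 in shZNF598, where 40.8% and 38.5% of all tested transcripts were. These shares are near the background. The steepest shControl slopes were those of HOXD13 (-0.29 ± 0.06 log2 per hour, SE), HOXA9 (-0.19 ± 0.04), HOXA10 (-0.18 ± 0.05), HOXB7 (-0.15 ± 0.04) and HOXC4 (-0.15 ± 0.02), and HOXB9 and HOXC10 also passed the edgeR test. At the other end stood HOXA6 (0.05 ± 0.06), HOXB6 (0.04 ± 0.05), HOXD10 (0.01 ± 0.02), HOXC9 (0.00 ± 0.06) and HOXD11 (-0.03 ± 0.02), of which none passed. HOXC4 differed from the rest in keeping its lowest level to 10 h in both arms.

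The 16 HOX transcripts under 1 CPM were tested among 129448 transcripts with at least 100 counts. From 0 to 6 h in shControl 14 of 16 fell, where 30.1% of those transcripts did. HOXD8 fell the most, by 2.56 ± 0.27 on the log2 scale (edgeR adjusted p = 1.21e-09), from 1.35 and 1.56 CPM to 0.24 and 0.218 CPM. HOXC8 fell by 2.39, HOXA3, a gene of thymus and neck development, by 2.19, HOXC13, a hair follicle gene, by 2.16, HOXB2 by 2.16 and HOXD3 by 2.03. HOXC5, HOXB8, HOXC12, HOXA2, HOXA4, HOXA7 and HOXD4 fell by 1.42 to 1.74, and HOXB4 (-0.27) and HOXB5 (-0.42) did not pass the test. From 6 to 10 h 6 of 16 rose, where 16.8% of those transcripts did.

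Apparent half-lives were taken by the rule of the study, with the best-fitting window of 0 to 4, 6, 10 or 24 h, but without spike-in RNAs, so they are relative to the bulk. Fits with R² over 0.9 and a half-life under 24 h in both arms were had for 23 of 36 HOX transcripts, and all 23 rested on windows ending at 4 or 6 h. The median of the 23 was 2.62 h for shControl cells and 2.45 h for knockdown cells, beside 4.85 h and 5.06 h over the 14989 of 79513 tested transcripts that met the rule. The filters differ, since the 23 include HOX transcripts under 1 CPM, such as HOXA3, and the 14989 do not include such transcripts. In shControl they ran from 1.39 h for HOXA3 to 5.75 h for HOXC10, with HOXB3 at 1.68 h, HOXD13 at 1.92 h and HOXA9 at 2.66 h. The half-life was longer in shZNF598 for 10 of the 23, a count not taken over all tested transcripts. With the window held at 0 to 10 h, none of the 36 met the rule.

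Sequence features did not sort the transcripts in a simple way. The AU-rich pentamer ATTTA, found in many short-lived mRNAs, was in 18 of the 20 tested HOX transcripts, against 82.5% of the 10725 genes, at a median of 1.10 per kb against 1.12 per kb. HOXD13, which fell the most, held 2.07 per kb and HOXD10, which did not fall, 2.24 per kb. The miR-196 seed match shown above was in the 3′ UTR of HOXA9, HOXB7 and HOXA5, with shControl changes of -2.18, -2.00 and -1.92 from 0 to 6 h. It was also in the 3′ UTR of HOXB6 and HOXB13, with changes of -0.89 and -0.92, and in the coding part of HOXA6, with -0.90.

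The knockdown comparison asked whether loss of ZNF598 changes mRNA decay. No HOX transcript differed between the arms in its slope over 0 to 10 h, where 0.116% of all tested transcripts did (edgeR). An unadjusted edgeR p under 0.05 was had by 1 of 20, beside 4397 of all 79513 tested. DESeq2 called 0 of the 4 to which it gave an adjusted p. The misfit of a straight line to fall and rise enters the spread of this test, so a difference could be missed. The smallest p was that of HOXC4, which stood at 1.38 and 1.36 CPM in shControl and 2.02 and 1.53 CPM in shZNF598 at 10 h. Its slope was higher in shZNF598 by 0.067 log2 per hour ± 0.027 (SE, edgeR adjusted p = 0.743). HOXC10 (0.067 ± 0.036, adjusted p = 0.968) and HOXD9 (0.050 ± 0.050, adjusted p = 1) followed. For the change from 0 to 6 h, 0 of 20 differed between the arms, where 0.0465% of all tested transcripts did (edgeR). Of the 20, 1 had an unadjusted edgeR p under 0.05, beside 3861 of all 79513 tested. DESeq2 called 0 of 15 with an adjusted p.

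Levels, unlike slopes, differed between the arms for some HOX transcripts. Over the 0 to 10 h libraries 7 of 20 were lower in shZNF598 and 0 higher, where 10.1% of all tested transcripts were lower and 12.3% higher. The 7 were HOXB13, HOXD13, HOXC11, HOXB9, HOXA10, HOXA11 and HOXA13. All belong to the 13 tested genes of paralogue groups 9 to 13, and 0 of 7 tested genes of groups 1 to 8 passed, a split chosen after the values were seen and not tested. The split did not hold under some other settings. HOXA6 and HOXB6, of group 6, had log2 differences of -0.24 and -0.25 (edgeR adjusted p = 0.0552 and 0.0544), and with total-count scaling or 1 row per gene both passed, giving 9 lower transcripts. At least 1 of them also passed without any of 8 single libraries. Of the 5 tested HEK293T markers, 4 differed as well, with NEFM (-0.78), KRT8 (-0.17) and CDH2 (-0.15) lower in shZNF598 and VIM (0.15) higher, and their part in the result was not tested.

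HOXB9 was lower in shZNF598 at every time from 0 to 10 h, but not in the single 24 h libraries (17.4 CPM in shControl, 17.6 in shZNF598). At 0 h it stood at 19.5 and 20.3 CPM in shControl and 14.2 and 14.2 in shZNF598, at 2 h at 16.1 and 15.7 against 10.7 and 10.6, at 4 h at 10.2 and 10.9 against 7.61 and 7.32, at 6 h at 8.88 and 7.99 against 5.78 and 6.62, and at 10 h at 12.4 and 10.4 against 10.0 and 9.51. The arms did not overlap at any of these 5 times. The log2 difference over 0 to 10 h was -0.44 ± 0.05 (edgeR adjusted p = 5.23e-07), and that at 0 h -0.49 ± 0.11 (adjusted p = 0.0412).

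HOXD13, with the values given above, also did not overlap between arms at any of the 5 times. Its log2 difference was -0.50 ± 0.06 over 0 to 10 h (edgeR adjusted p = 6.69e-07) and -0.55 ± 0.11 at 0 h (adjusted p = 0.0267). HOXB13 differed most, by -0.60 ± 0.08 (adjusted p = 8.04e-06), from 2.42 and 3.24 CPM in shControl to 1.99 and 2.03 in shZNF598 at 0 h and from 1.81 and 1.61 to 0.896 and 0.838 at 4 h. It too was lower in both libraries at all 5 times. The share of all tested transcripts without overlap at all 5 times was not computed. HOXB9, HOXD13 and HOXB13 were taken from the level test on the same libraries, so the lack of overlap adds no separate support.

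HOXA10 differed by -0.35 ± 0.06 (edgeR adjusted p = 1.03e-04), with 14.8 and 17.1 CPM in shControl against 11.1 and 13.3 in shZNF598 at 0 h. HOXC11 differed by -0.47 ± 0.11 (adjusted p = 0.0025), most at 4 h with 0.779 and 1.04 CPM against 0.346 and 0.359. HOXA11 (-0.28 ± 0.09, adjusted p = 0.0236) and HOXA13 (-0.26 ± 0.09, adjusted p = 0.0398) were the weakest of the 7. HOXA11 no longer passed without shControl 2, 6 or 10 h replicate 1, shZNF598 6 or 10 h replicate 1 or shZNF598 0 h replicate 2. HOXA13 lost its call without any of 14 libraries, and kept it without shControl 0, 6 or 10 h replicate 2 or shZNF598 4, 6 or 10 h replicate 2. Their log2 differences stayed negative, between -0.43 and -0.12 for HOXA11 and between -0.45 and -0.08 for HOXA13 over the alternatives run. With replicate 2 of every group alone, fitted with shRNA and time as additive terms, HOXC11, HOXA11 and HOXA13 did not pass, and with replicate 1 alone HOXC11 did not.

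At 0 h alone the calls were 2 of 20, HOXB9 and HOXD13, both lower, where 0.335% of all tested transcripts were lower. HOXA10 followed with -0.39 ± 0.12 (edgeR adjusted p = 0.201). The other high-numbered genes HOXA9, HOXC9, HOXC10, HOXD9, HOXD10 and HOXD11 had log2 differences over 0 to 10 h between -0.06 and 0.08. The 0 h calls were fragile. With the 0 h libraries fitted alone, without shControl 0 h replicate 1 or without either shZNF598 0 h library, 0 of 20 passed. HOXB9 lost its call, at -0.53 to -0.46, without any of 13 libraries, and kept it without shControl 0 h replicate 2, either shZNF598 6 h library or any 10 h library.

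**Figure D4:**
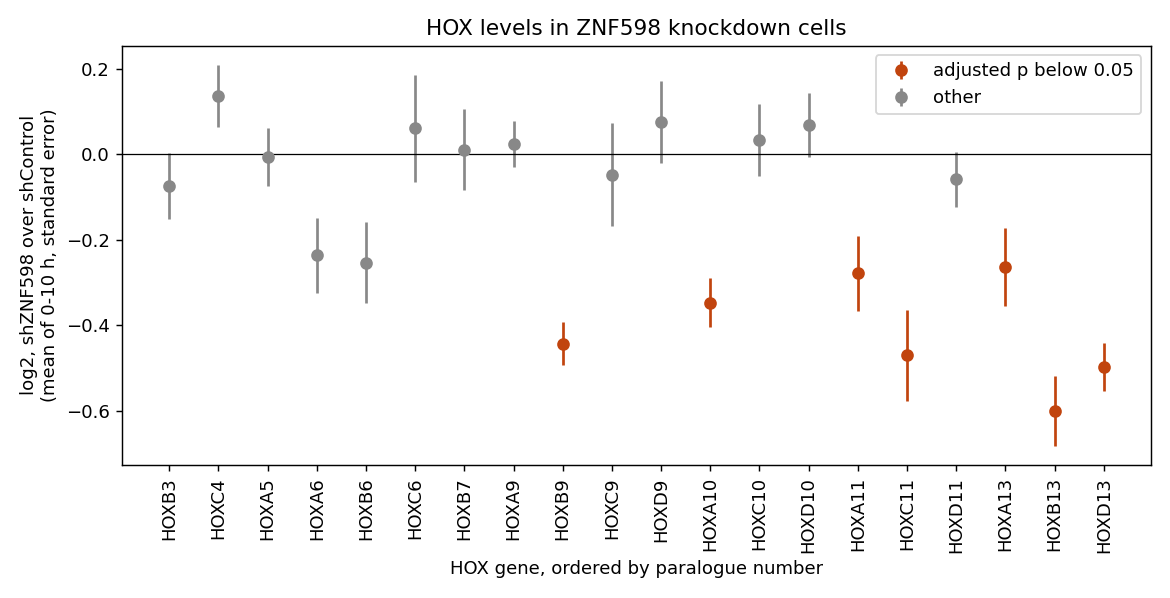
Log2 difference in level between shZNF598 and shControl over 0 to 10 h, with standard error, for the 20 tested HOX transcripts ordered by paralogue number. Those with adjusted p below 0.05 (orange) are 7 genes of paralogue groups 9 to 13, from HOXB13 at -0.60 to HOXA13 at -0.26, and HOXA6 and HOXB6 joined them with total-count scaling or 1 row per gene.

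HOX proteins bind DNA with TALE homeodomain partners, and 8 of 9 genes of that family were tested. From 0 to 6 h in shControl 6 fell and 1 rose, where 35.7% of all tested transcripts and 39.2% of 15035 genes with 1 row each fell and 34.7% of these rose, with MEIS1 at -1.95, MEIS2 at -1.76 and PKNOX1 at -1.41, while MEIS3 rose by 0.75. In shZNF598, MEIS2 (-0.31) and MEIS3 (-0.38) were lower over 0 to 10 h and PKNOX1 (0.32) higher, among 3 lower and 1 higher of the 8. Of the genes with 1 row each, 11.4% were lower and 14% higher. Of 18 noncoding genes of the clusters 3 were tested. From 0 to 6 h in shControl 1 of the 3 fell, beside the same 39.2% of genes. It was HOTAIR, transcribed in the HOXC cluster, which fell by 1.84 on the log2 scale. HOXA11-AS (-0.43) and HOTAIRM1 (0.12) did not pass the test there. Over 0 to 10 h 1 of the 3, HOXA11-AS, was lower in shZNF598, by -0.38 ± 0.10, beside -0.28 for HOXA11 on the opposite strand.

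Most other homeobox genes tested also fell in the early chase. Of 62 listed, 32 were tested, and from 0 to 6 h in shControl 30 fell and 0 rose, beside the same 39.2% of genes, with a median log2 change of -1.94 beside -1.47 for HOX. From 6 to 10 h 16 of 32 rose, where 27.8% of genes did. Over 0 to 10 h 1 was lower in shZNF598 and 6 higher, where 11.4% and 14% of genes were. The difference between the lists was not tested.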

How the data were processed

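The deposited files hold raw read counts per transcript for each BRIC-Seq library. Per the labels and the study's methods, the authors aligned reads with STAR 2.7.0a to hg38 after removing noncoding RNA reads and counted them with featureCounts. How reads that overlap several isoforms were counted is not given in the sources used here. Transcripts were named with GENCODE 44 on GRCh38, and 98.4% of identifiers matched, 92.2% with their version number. Identifiers without a versioned or unversioned match stayed in the tests. Spike-in RNAs were not used here.

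Counts were fitted with edgeR 4.0.16 (quasi-likelihood test, TMM scaling, Benjamini-Hochberg adjustment over all tested rows) in R 4.3.3, keeping rows that averaged 1 CPM or more, before scaling, at 0 to 10 h. One model had 1 mean per group and another had shRNA, hours and their product. The 24 h libraries entered only levels, half-lives and 1 alternative. DESeq2 1.42.0 gave the half-lives and an alternative test. Levels in the text are means ± SD, and changes are log2 ± SE. The tests were run on simulated counts with known changes first. No pair of replicates agreed within sampling noise (chi-square per degree of freedom 2.31 to 18.8).

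The HOX genes and lists were chosen with earlier results of these data known. Genes given in full were the 5 lowest and 5 highest shControl slopes and, for each shRNA comparison, all called genes or at least the 3 with the smallest p. Alternatives covered scaling, filters, the test, the replicate block, the chase window and left-out libraries. Homeodomain composition was not analysed here, and values of some single genes are not reported here.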

Additional observations from a re-analysis of the deposited data

Results flagged for a closer look

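The counts of 2 HOX genes that were left out of all comparisons were above a fixed floor of 3 counts, which is a setting and not a measured noise level. HOXD1 had 33 counts over all libraries and HOXD12 had 44. HOXD1 shared 60.1% of its exon bases with opposite-strand genes, among them HAGLR, so its counts are less certain. Whether either gene was expressed was not tested.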

How the results depend on the processing

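Slope counts depended most on the window and scaling. Of 7 HOX slopes called in shControl and 5 in shZNF598, total-count scaling gave 17 and 13, rows with at least 100 counts (36 HOX transcripts) 14 and 10, a 0 to 6 h window 19 and 19, and a 0 to 24 h window 2 and 3, all of the last positive. Under total-count scaling the median slope of all tested transcripts also moved, from -0.018 to -0.088 log2 per hour in shControl and from -0.014 to -0.077 in shZNF598. For most alternatives, here and above, the share of all tested transcripts called is not given. Leaving out libraries gave 3 to 9 in shControl and 3 to 6 in shZNF598, the lowest without replicate 2 of all groups. With 1 replicate per group, levels at 0 h could not be fitted, having no residual degrees of freedom. The 2 calls at 0 h became 1 with rows of at least 100 counts, 0 with the 0 h libraries alone and 0 to 2 without single libraries. The 7 calls over 0 to 10 h ran from 5 to 9 without single libraries and were 9 under total-count scaling or 1 row per gene, and an additive model of shRNA and time, added after the data were seen, gave 4 without replicate 1 of all groups and 7 without replicate 2. The fall from 0 to 6 h was called for 33 (shControl) and 32 (shZNF598) of 36 with rows of at least 100 counts. The 17 rises from 6 to 10 h in shControl became 8 calls under total-count scaling and 8 to 17 without single libraries. The 23 half-lives became 0 with the window fixed at 0 to 10 h. The causes were not tested.

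Directions turned only for named transcripts near 0. Under total-count scaling the shControl slope was -0.066 for HOXC9, -0.059 for HOXD10, -0.025 for HOXB6 and -0.015 for HOXA6, and the 0 to 6 h change of HOXD10 was -0.26. In the 0 to 6 h window these slopes were -0.227, -0.0024, -0.150 and -0.176, and over 0 to 24 h that of HOXD11 was 0.012. With libraries left out, the slope ran from -0.056 to 0.039 for HOXC9, from -0.0035 to 0.033 for HOXD10, from -0.011 to 0.091 for HOXB6 and from -0.0049 to 0.099 for HOXA6, and the HOXD10 change from -0.30 to 0.40. In all, 875 of 952 alternative values of named genes kept direction and call.

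Replicate numbers were not taken as pairs, since deviations of same-numbered libraries correlated at -0.23 to 0.35 over the chase times. With a replicate block, 7 and 5 slopes, 0 slope differences, 2 levels at 0 h and 7 levels over 0 to 10 h were called. Transcripts near 1 CPM rest on few counts, which limits the 16 lowest HOX genes.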

Other observations

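At 24 h, with 1 library per arm and no test, labelled HOX transcripts stood higher against the bulk than at 10 h for 19 of 20 in shControl and 20 of 20 in shZNF598. The share of all tested transcripts that did so was not computed. The median log2 level against 0 h of the 20 was -0.67 at 10 h and -0.01 at 24 h in shControl, and -0.46 and 0.21 in shZNF598. Over all tested transcripts it was -0.18 and -0.19 in shControl, and -0.16 and -0.18 in shZNF598. HOXC9, which acts in thoracic motor neurons, reached 7.24 CPM in shControl and 5.27 CPM in shZNF598, or 345% and 265% of its 0 h mean. HOXB6 reached 263% and 258%. HOXD13 and HOXA9 stayed low, at 29.5% and 33.0% in shControl. The median of the 20 was 99.2% of the 0 h level in shControl and 116% in shZNF598.

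Chromatin regulators of the clusters also moved in the chase. Of 25 Polycomb genes, all tested, 20 fell and 2 rose from 0 to 6 h in shControl, where 39.2% of 15035 genes with 1 row each fell and 34.7% rose, with CBX7 at -2.28 and EED, a core subunit of the complex that methylates histone H3, at -2.19, while RBBP4 rose by 0.60. Over 0 to 10 h 4 were higher in shZNF598, where 14% of genes were, among them CBX7 (0.44 ± 0.12, edgeR adjusted p = 0.00821) and PHF19 (0.39 ± 0.07, adjusted p = 3.86e-04), and 2 lower, where 11.4% were. These shares of the level are near the background. Of 17 trithorax and activator genes 16 were tested, of which 9 fell and 2 rose from 0 to 6 h in shControl, and 4 were higher and 2 lower in shZNF598, beside the same shares of all genes.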
